A study of Mus musculus with 162 samples.

Results

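The 8 libraries described here came from the cheek skin of wild-type mice that had been injected with an anti-Gr1 antibody (aGr1) and whose skin was taken on day 8 of the MC903 model. They were chosen by their labels (skin, wild-type, aGr1 injection, day 8), and they make up 8 of the 162 libraries of the series and 8 of its 70 skin libraries. MC903 is calcipotriol, an analog of vitamin D that produces itchy, inflamed skin resembling atopic dermatitis when it is painted on mice, and ethanol is the solvent it was painted in. The study depleted neutrophils to ask what part they play in this model, and these libraries give the skin transcriptome under that depletion.

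All animals were adult male C57BL/6 mice without engineered alleles. In 4 libraries the skin had received 20 µl of 0.2 mM MC903 daily, and in the other 4 it had received ethanol alone, and both groups were injected with 250 µg of aGr1 daily. The antibody clone binds Ly6G, a surface protein of neutrophils, and also Ly6C, which inflammatory monocytes carry. Values from the 5 PBS-injected libraries of the same day (2 MC903 and 3 ethanol), where PBS is the vehicle of the antibody, and from the 11 uninjected libraries (5 MC903 and 6 ethanol) are given for comparison. The labels do not say whether the libraries of a group came from separate animals, so p-values measure the spread between libraries.

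Neutrophils are short-lived granulocytes that enter inflamed tissue along gradients of the chemokines Cxcl1, Cxcl2, Cxcl3 and Cxcl5, which act on the receptor Cxcr2. A second chemokine family, Cxcl9, Cxcl10 and Cxcl11, is induced by interferons and acts on Cxcr3, which is found on activated T cells and on some sensory neurons. The epidermis answers vitamin D analogs with the cytokine Tslp and with the catabolic enzyme Cyp24a1, and under inflammation it shifts from the keratins and envelope proteins of resting skin to those of repair.

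Levels are given as cpm (counts brought to a common library size by edgeR with TMM scaling), and changes as log2 fold changes of MC903 over ethanol with their standard error. Adjusted p-values come from edgeR's quasi-likelihood test with Benjamini-Hochberg correction over all genes tested, and a gene is said to have risen or fallen where the adjusted p is under 0.05. The 8 aGr1 libraries held between 20176471 and 27351763 counts on genes, the PBS libraries 19360413 to 29080747 and the uninjected libraries 29233248 to 39629520, so a single read is worth a small fraction of 1 cpm in each.

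The ethanol-treated aGr1 libraries held RNA of tissues other than skin, and this bears on each contrast that uses them. Among 7 genes of salivary gland, picked after the values were seen (Bpifa2, Amy1, Smr3a, Car6, Pip, Dcpp1 and Chia1), the share of all counts was 22.3%, 34.8%, 5.11% and 9.71% in ethanol libraries 1 to 4. In MC903 libraries 1 to 4 the same genes took 0.00295%, 0.00305%, 1.24% and 0.157%. Lacrimal or nasal gland genes (Obp1a, Mucl2, Scgb1b2 and Scgb2b2, picked in the same way) took 10.5% of ethanol library 4 and 3.26% of MC903 library 4, and at most 0.0192% of any other aGr1 library. The summed level of 4 B cell markers, among them Cd79a, Cd79b and Ms4a1, was 386, 195, 16.9 and 4.08 cpm in ethanol libraries 1 to 4 and between 1.88 and 2.88 cpm in the MC903 libraries. Gland and B cell RNA was thus high in ethanol libraries 1 and 2, gland RNA alone was high in ethanol library 4, and ethanol library 3 held the least salivary RNA of the 4. In bulk RNA a change of cell numbers and a change of RNA per cell cannot be told apart. The counts for each gene list are therefore also given without ethanol libraries 1 and 2 and, for most lists, without libraries 1, 2 and 4. In that order they are the first and the second reduced fit, and the second leaves 1 ethanol library. These alternatives were chosen after the data were seen. Ethanol library 3 stays in both, with 5.11% of its counts on the salivary genes, so gland RNA is lowered in these fits but not removed.

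**Figure D1:**
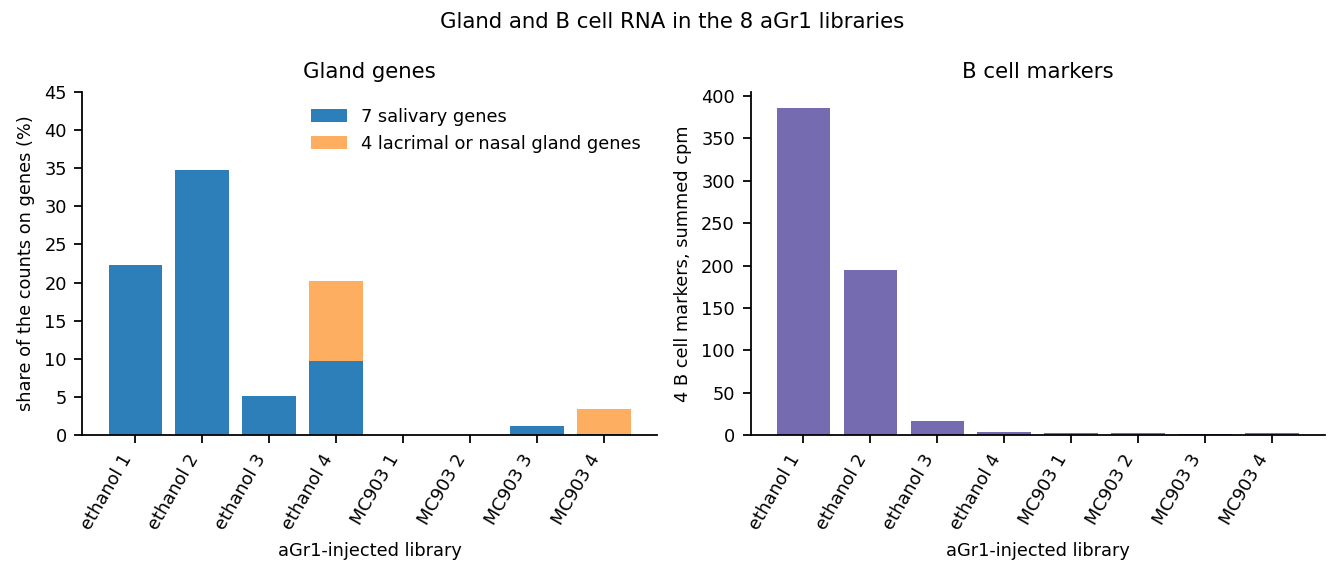
Share of the counts on genes (%) taken by salivary genes and by lacrimal or nasal gland genes (left) and summed cpm of 4 B cell markers (right) in each of the 8 aGr1 libraries. Gland genes reached 34.8% in ethanol library 2, and the B cell sum reached 386 cpm in ethanol library 1 while no MC903 library passed 2.88 cpm.

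Skin markers were present in all 8 libraries. Keratinocyte markers (8 genes) summed to 17578, 16112, 17435 and 11174 cpm in MC903 libraries 1 to 4 and to 4739, 6522, 10156 and 9384 cpm in the ethanol libraries. Skeletal muscle markers summed to 8674 to 13878 cpm under MC903 and 13964 to 20913 cpm under ethanol, and adipocyte markers to 130 to 318 cpm against 764 to 1302 cpm. The hair follicle sum was 410, 421, 130 and 4.98 cpm under MC903 and 2677, 189, 6596 and 3577 cpm under ethanol. The part of these shifts in tissue make-up in the results below was not tested.

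MC903 changed a large share of the transcriptome in aGr1-injected skin. Of 25287 genes tested, 3827 rose (15.1%) and 4415 fell (17.5%), and the median log2 change over all genes was -0.02. For 8115 genes (32.1%) the ranges of the 4 MC903 and the 4 ethanol libraries were apart. Without ethanol libraries 1 and 2 the calls numbered 5587 (2503 higher and 3084 lower), and without libraries 1, 2 and 4 they numbered 2844 (1177 and 1667). List counts below are to be read beside the shares of 15.1% and 17.5% over all genes tested. In the first reduced fit they are to be read beside 2503 higher and 3084 lower of 24318 genes tested. The genes with the smallest p among those that rose included Sh2d5, whose product is an adaptor protein with an SH2 domain. Its level was 59.1, 59.2, 52.3 and 58 cpm under MC903 and 0.894, 0.61, 0.831 and 0.83 cpm under ethanol, a change of 6.14 ± 0.142 (adjusted p = 1.1e-07). Tmprss11b, a membrane-bound serine protease, rose by 6.12 and Ces2g, a carboxylesterase, by 3.47 on the log2 scale. Among genes that fell, Defb8, a beta-defensin, stood at 137.2, 120.8, 224.8 and 111.9 cpm under ethanol and at 0.595, 0.19, 0.722 and 0.537 cpm under MC903 (-8.22, adjusted p = 5.3e-06). Skint7, of a family expressed in keratinocytes and thymus that shapes epidermal gamma-delta T cells, fell by 4.76, and Adh6a, an alcohol dehydrogenase, by 5.47. These genes were selected by their p in this contrast, so their size is a description.

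**Figure D2:**
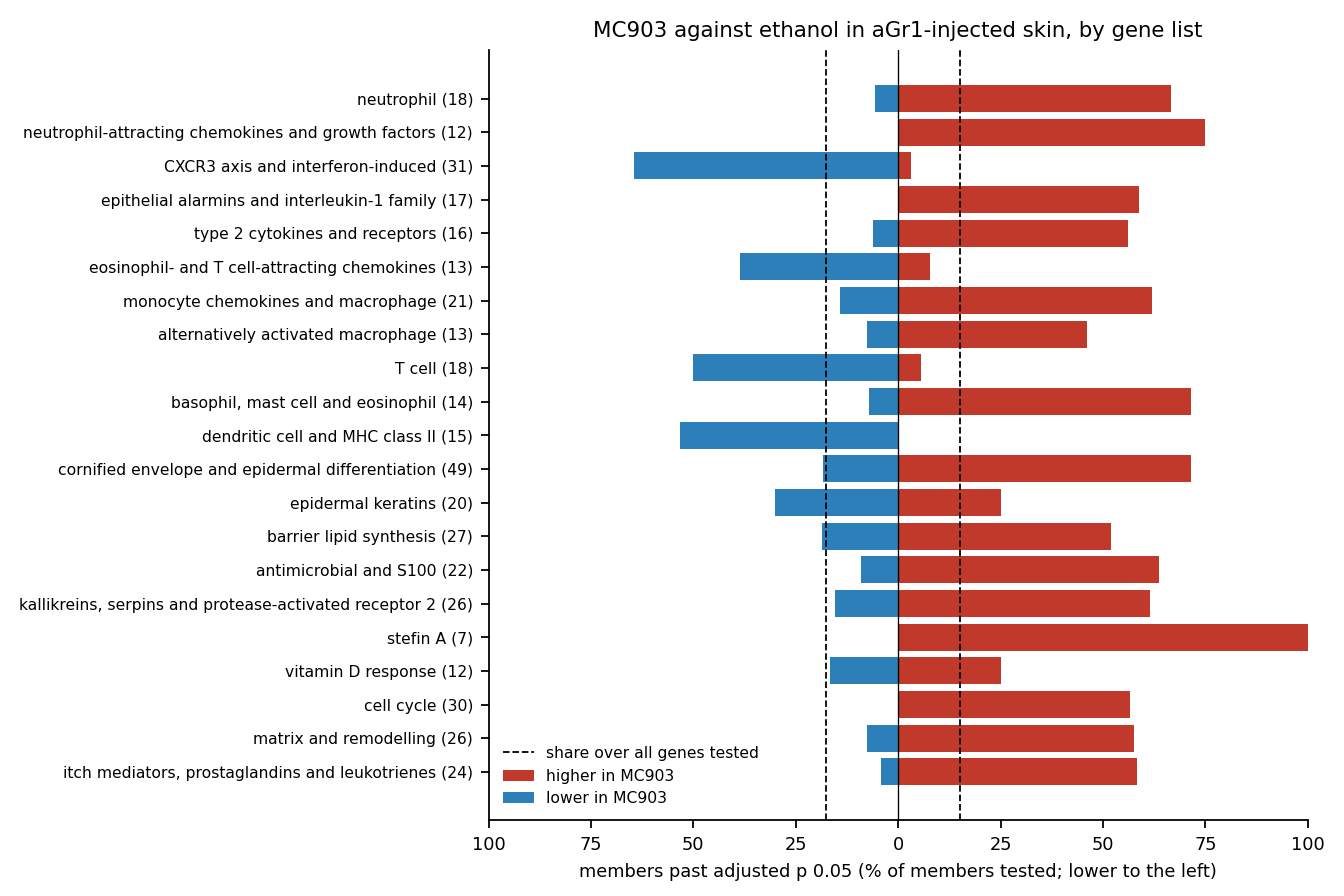
Share of the tested members of each gene list (%, number tested in brackets) that rose (red, right) or fell (blue, left) between MC903 and ethanol in aGr1-injected skin, with dashed lines at the share over all genes tested (15.1% higher and 17.5% lower). All 7 stefin A genes rose, and interferon-induced, T cell and MHC class II lists extend furthest to the left.

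The target of the antibody could not be followed through its own transcript. Ly6g was read at most once per aGr1 library (0.0425, 0.038, 0 and 0 cpm under MC903 and 0 in the 4 ethanol libraries), was not tested, and did not exceed 0.339 cpm in any of the 24 day 8 libraries, so it marks neutrophils in none of them. Ly6c2, which encodes a form of Ly6C, was read in each library, at 20.3, 19.9, 20.5 and 20.4 cpm under MC903 and 18, 14.9, 16.4 and 15.6 cpm under ethanol. The groups did not overlap, but the change was small (0.30 ± 0.1, adjusted p = 0.0477) and did not pass in either reduced fit (adjusted p = 0.0846 and 0.292). In MC903-treated skin Ly6c2 stood at 24 and 21.7 cpm after PBS, and the difference of aGr1 from PBS was -0.17 ± 0.208 (adjusted p = 0.823).

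Other neutrophil transcripts remained higher under MC903 than under ethanol in aGr1-injected skin. The study itself followed depletion by flow cytometry, and on day 8 it counted fewer neutrophils in MC903-treated cheek skin after aGr1. Those are counts of cells, while the values here are levels of RNA. Of 18 tested members of the neutrophil list 12 rose and 1 (Il1r2, the interleukin-1 decoy receptor) fell, with a median of 2.24 against -0.02 over all genes. In the reduced fits 11 and then 9 rose and 1 fell. The chemokine receptor Cxcr2 was at 13.7, 12.7, 15.7 and 11.7 cpm under MC903 and at 7.07, 5.34, 4.9 and 3.26 cpm under ethanol (1.36 ± 0.225, adjusted p = 0.0021). Csf3r, the receptor for the growth factor of granulocytes, stood at 8.11, 13.3, 11.2 and 6.93 cpm against 3.94, 2.75, 2.89 and 2.81 cpm (1.65 ± 0.239, adjusted p = 0.00107). Both receptors were read in ethanol-treated skin too, and in neither did the groups overlap.

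Granule and surface products of neutrophils changed by more. Mmp8, neutrophil collagenase, was at 7.82, 6.69, 7.79 and 9.12 cpm under MC903 and at 0.0447, 0.0509, 0.219 and 0.0638 cpm under ethanol (6.21 ± 0.372, adjusted p = 1.1e-05). Retnlg, a resistin-like secreted protein, was at 2.21, 3.99, 3.08 and 4.93 cpm against 0.134, 0.102, 0.219 and 0.0638 cpm (4.63 ± 0.393). Clec4d, a lectin receptor of myeloid cells, was at 6.2, 8.85, 6.5 and 11.3 cpm against 0.179, 0.458, 0.306 and 0.383 cpm (4.60 ± 0.325). The granule gene Ngp was read in 1 of the 4 ethanol libraries (0.134 cpm) and stood at 0.467, 2.62, 3.13 and 1.41 cpm under MC903, at least 9.96-fold higher when the ethanol group is set at its floor of 3 counts a library. Clec4d is also made by macrophages, so not each of these transcripts belongs to neutrophils alone.

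The neutrophil marker sum did not order the libraries by treatment. It was 184, 187, 168 and 256 cpm under MC903 and 75.4, 62.5, 105 and 364 cpm under ethanol. The high value in ethanol library 4 came from Ltf, lactoferrin, which lacrimal and salivary glands also secrete and which was at 272 cpm there and 42.9 cpm in MC903 library 4. Ltf was at most 3.13 cpm in the other 6 aGr1 libraries, and its change did not pass (adjusted p = 0.393).

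Neutrophil transcripts under MC903 were set against PBS-injected skin, where 2 MC903 libraries were available. In MC903-treated skin none of the 18 list members passed between aGr1 and PBS by edgeR, while 5 had an unadjusted p under 0.05 and DESeq2 called 1 higher and 2 lower. For Cxcr2 the PBS libraries gave 19.2 and 21.1 cpm, above each of the 4 aGr1 libraries, and the difference was -0.58 (adjusted p = 0.489). The neutrophil marker sum was 180 and 198 cpm after PBS and 183 to 229 cpm in uninjected MC903-treated skin.

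**Figure D3:**
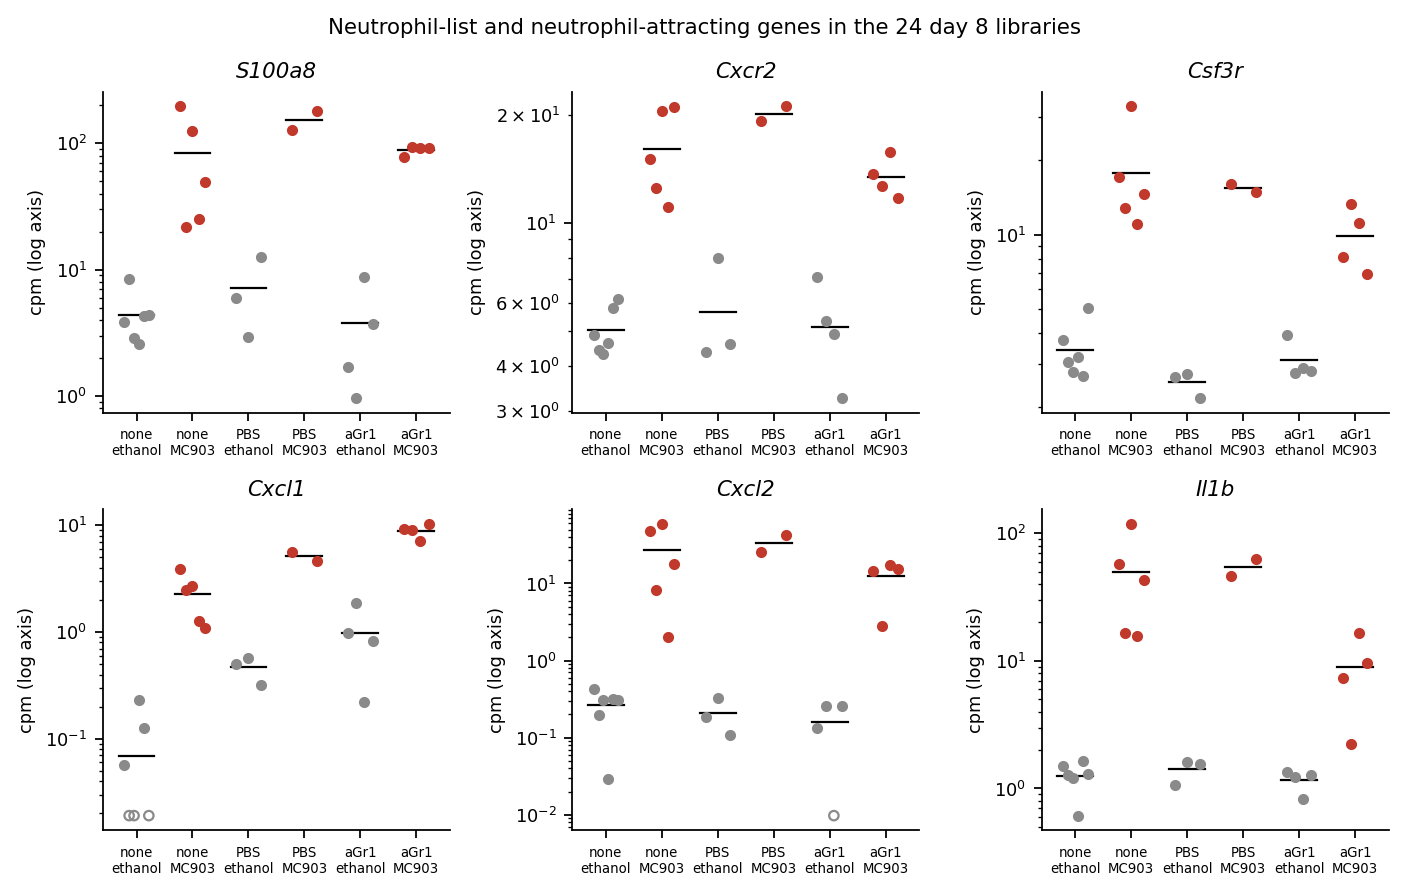
Level (cpm, log axis, one point per library, line at the group mean, open circles for 0) of S100a8, Cxcr2, Csf3r, Cxcl1, Cxcl2 and Il1b in the 24 day 8 libraries by injection and treatment. Cxcr2 ran from 11.7 to 15.7 cpm in MC903-treated aGr1 skin against 19.2 and 21.1 cpm after PBS, and Il1b from 2.24 to 16.6 cpm against 46 and 62.8 cpm.

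The signals that draw neutrophils were induced under aGr1. Of 12 tested members of the list of neutrophil-attracting chemokines and growth factors 9 rose and none fell, with a median of 3.04, and 9 and then 5 rose in the reduced fits. Cxcl1 was at 9.26, 9.04, 7.07 and 10.3 cpm under MC903 and 0.984, 1.88, 0.219 and 0.83 cpm under ethanol (3.16 ± 0.469, adjusted p = 0.00119). Cxcl2 was at 14.6, 2.81, 17.5 and 15.4 cpm against 0.134, 0.254, 0 and 0.255 cpm (6.29 ± 0.766, adjusted p = 4.0e-04). MC903 library 2 was thus low for Cxcl2 but not for Cxcl1.

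The neighbouring genes followed. Cxcl3 was at 8.79, 3.99, 8.32 and 6.49 cpm under MC903 and at most 0.306 cpm under ethanol (5.48 ± 0.566, adjusted p = 1.7e-04). Cxcl5, read in 2 of the ethanol libraries and never above 0.0638 cpm there, stood at 3.53, 13.5, 10.4 and 2.78 cpm under MC903, at least 39.4-fold higher (adjusted p = 2.5e-04). Ppbp also rose. The 5 genes lie together on chromosome 5 of mm10 (Cxcl5 at chr5:90759360-90761624, Ppbp at chr5:90768518-90770063, Cxcl3 at chr5:90786103-90789600, Cxcl1 at chr5:90891241-90893115 and Cxcl2 at chr5:90903871-90905938).

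Among the cytokines of the same list, Il6 was at 5.01, 6.16, 6.5 and 3.85 cpm under MC903 and at 0, 0.203, 0.219 and 0 cpm under ethanol (5.51 ± 0.594). Il1b, the inflammatory interleukin-1, was at 7.39, 2.24, 16.6 and 9.66 cpm against 1.34, 1.22, 0.831 and 1.28 cpm (2.91 ± 0.529, adjusted p = 0.00335), a call lost without ethanol libraries 1, 2 and 4 (3.41, adjusted p = 0.102). After PBS the MC903 libraries had 46 and 62.8 cpm of Il1b, and the difference of aGr1 from PBS did not pass (-2.61, adjusted p = 0.0519). Cxcl1 stood at 5.62 and 4.59 cpm after PBS and 1.09 to 3.92 cpm in uninjected MC903-treated skin. Between aGr1 and PBS none of the 12 members passed by edgeR in MC903-treated skin, 5 had an unadjusted p under 0.05, and DESeq2 called 1 lower. The genes S100a8 and S100a9, whose products are abundant in neutrophils and in activated keratinocytes, also rose. S100a8 was at 78.1, 93.5, 91.7 and 91.6 cpm under MC903 and 1.7, 0.966, 8.83 and 3.7 cpm under ethanol (4.51 ± 0.579, adjusted p = 5.5e-04), against 126.5 and 180.7 cpm in the PBS MC903 libraries.

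Of 31 tested members of the interferon list 20 fell with MC903 after aGr1, where 17.5% of all genes tested fell, while 27 rose in uninjected skin and 11 rose in PBS-injected skin. Cxcl9, at chr5:92321347-92328079 of mm10, stood at 2.89, 4.71, 2.79 and 2.34 cpm in the MC903-treated aGr1 libraries and at 12.4, 8.75, 3.41 and 3.38 cpm in the ethanol-treated ones (-1.16 ± 0.446, adjusted p = 0.0744, and -0.11 without ethanol libraries 1 and 2). After PBS the MC903 libraries had 41.1 and 132.8 cpm, and in uninjected mice they had 88.2, 5.47, 165, 9.54 and 27.4 cpm. Each of these 7 libraries was above each of the 4 MC903-treated aGr1 libraries. MC903 raised Cxcl9 in uninjected skin (4.29, adjusted p = 0.00168) and in PBS-injected skin (4.34, adjusted p = 0.0187), where 12.2% and 3.26% of all genes tested rose and 11.2% and 0.721% fell.

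Cxcl10, at chr5:92346638-92348889, repeated this order. It was at 1.19, 2.47, 1.59 and 2.44 cpm under MC903 and 4.83, 5.04, 2.14 and 1.85 cpm under ethanol after aGr1 (-0.88 ± 0.392, adjusted p = 0.116, and -0.08 without ethanol libraries 1 and 2), against 13.8 and 58.8 cpm in the PBS MC903 libraries and 61, 8.88, 96.6, 6.71 and 18.1 cpm in the uninjected ones. Cxcl11, at chr5:92359544-92365485, was read at most 3 times in each MC903-treated aGr1 library and 5 to 9 times in each ethanol-treated one. Its fall of 2.16 (adjusted p = 0.0344) was lost without ethanol libraries 1 and 2 (-1.91, adjusted p = 0.147) and passed in 2 of the 8 fits that left out 1 library.

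Isg15, a ubiquitin-like protein induced by type I interferon, was at 1.95, 2.13, 1.92 and 2.88 cpm under MC903 and 5.01, 8.8, 6.3 and 3.26 cpm under ethanol after aGr1 (-1.42 ± 0.301, adjusted p = 0.00683). The PBS MC903 libraries had 25 and 70.7 cpm of Isg15, and the uninjected ones 59.8, 8.23, 82.9, 6.32 and 23.6 cpm. After aGr1 the MC903 libraries were thus the lower group, and in the other mice the higher. Summed over the interferon list, the level was 395 to 455 cpm in MC903-treated aGr1 skin. Ethanol-treated aGr1 libraries 1 to 4 held 822, 914, 574 and 497 cpm. Ethanol-treated skin held 337 to 497 cpm in uninjected mice and 344 to 679 cpm after PBS. The MC903 level after aGr1 thus lay in the range of the ethanol-treated skin of the other mice.

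The promoters of these genes are shown because they bear the letters that interferon-activated transcription factors read. The sequences are the 250 bases before the start of each gene, 5' to 3' on the strand of the gene, from RefSeq on GRCm38.p6, and capitals mark GAAANNGAA, the core of an interferon-stimulated response element. Cxcl9 lies on the minus strand with this stretch at chr5:92328080-92328329, Cxcl10 on the minus strand at chr5:92348890-92349139, and Isg15 on the minus strand at chr4:156200819-156201068.
Cxcl9: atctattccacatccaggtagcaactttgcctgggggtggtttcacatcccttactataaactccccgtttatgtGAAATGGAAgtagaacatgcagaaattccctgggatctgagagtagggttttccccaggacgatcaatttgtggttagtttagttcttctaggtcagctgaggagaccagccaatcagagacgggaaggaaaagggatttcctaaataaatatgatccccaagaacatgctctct
Cxcl10: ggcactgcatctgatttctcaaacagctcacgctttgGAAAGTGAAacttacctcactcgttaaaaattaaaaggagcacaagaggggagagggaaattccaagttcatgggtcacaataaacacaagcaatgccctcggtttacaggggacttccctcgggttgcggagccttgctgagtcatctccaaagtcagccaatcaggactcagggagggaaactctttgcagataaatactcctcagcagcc
Isg15: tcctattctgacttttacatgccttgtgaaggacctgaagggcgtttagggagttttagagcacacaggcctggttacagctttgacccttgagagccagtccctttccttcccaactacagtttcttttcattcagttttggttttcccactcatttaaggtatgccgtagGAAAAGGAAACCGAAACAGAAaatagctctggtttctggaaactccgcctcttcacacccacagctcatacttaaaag

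Counted from the base before the start as -1, the core begins at -175 in Cxcl9, at -213 in Cxcl10 and at -78, -72 and -66 in Isg15, where the 3 matches overlap each other. Both strands were searched in a window of 250 bases before to 50 after each start. The core was found in 2812 of 32851 promoters (8.56%) and in 2638 of 27025 genes (9.76%). Of the 31 genes of the interferon list 23 had a promoter in the table and 11 of these held the core (47.8%): Cxcl9, Cxcl10, Gbp2, Gbp3, Gbp5, Irgm1, Igtp, Isg15, Ifit1, Ifit3 and Rsad2. Oasl2, Irf1, Irf7, Ifit2, Psmb8, Psmb9 and Tap1 were among those with a promoter but without the core, and only promoters with a match are printed above. Cxcl11, Gbp4, Iigp1, Mx1, Usp18, Zbp1 and Nlrc5 were among those with no entry. A match is a description of the letters and not evidence that a factor was bound.

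In the interferon list, 20 of the 31 tested members fell and 1 rose between MC903 and ethanol in aGr1-injected skin, with a median of -1.04. Over all genes tested 17.5% fell and 15.1% rose. The groups did not overlap for 16 members, against 32.1% of all genes tested. The count that fell was 10 of 30 without ethanol libraries 1 and 2, where 3084 of all 24318 genes tested fell and the list median was -0.49. Without libraries 1, 2 and 4, where 1 ethanol library remains, the list median was -0.70 and the count is not given. The count that fell was 8 in 1 fit over 24 libraries and 9 to 24 in the fits without 1 library, the lowest without MC903 library 1. In uninjected skin 27 members rose with MC903 and none fell, with a median of 1.9, and in PBS-injected skin 11 rose and none fell, with a median of 1.96. Over the 5 fits that left out 1 PBS library the count that rose there was 0 to 27, and it was 0 without ethanol PBS library 1.

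Members with other roles fell too. Nlrc5, the activator of MHC class I genes, was at 33.7, 29.6, 31.9 and 36.4 cpm under MC903 and 70.5, 75.7, 61.5 and 56 cpm under ethanol after aGr1 (-1.03 ± 0.122, adjusted p = 3.5e-04). Usp18, the protease that removes Isg15 from its targets, was at 3.02, 2.39, 3.03 and 4.2 cpm against 10.1, 18, 8.79 and 7.34 cpm (-1.83 ± 0.305, adjusted p = 0.00213). Igtp, an interferon-inducible GTPase, was at 5.23, 5.81, 6.5 and 7.07 cpm against 18.2, 26.9, 15.6 and 11 cpm (-1.57 ± 0.258, adjusted p = 0.00201). For each of these genes all 4 MC903 libraries were below all 4 ethanol libraries, including ethanol library 3, which also held gland RNA. They are the 3 members of the list with the smallest p in this contrast, so their lack of overlap is a description.

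Oasl2, an oligoadenylate synthase-like protein, fell by 1.19 (adjusted p = 0.0192), a call that was lost without ethanol libraries 1 and 2 (-0.86, adjusted p = 0.0913). Ifngr2, a subunit of the interferon gamma receptor, was the member that rose (0.35, adjusted p = 0.0186), and it did not pass without libraries 1, 2 and 4 (adjusted p = 0.255). Interferon gamma itself, Ifng, was read at most 2 times in each MC903-treated and 6 times in each ethanol-treated aGr1 library. Cxcr3, the receptor of these chemokines, was at 0.892, 2.17, 1.25 and 0.878 cpm against 2.46, 1.58, 0.7 and 0.447 cpm and did not pass (adjusted p = 0.966).

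The level under MC903 was also set against PBS-injected skin, without the ethanol libraries. In MC903-treated skin, aGr1 against PBS, 57 genes passed of 26712 tested, 44 of them lower (0.165% of all genes tested), and 17 of the 31 interferon genes were among those 44. Without ethanol libraries 1 and 2, which enter this contrast only through the filter, the scaling and the estimate of the spread, 19 members were lower, and without libraries 1, 2 and 4 there were 8. Cxcl9 differed by -4.77 ± 0.604 (adjusted p = 0.0132), Cxcl10 by -4.24 ± 0.542 (adjusted p = 0.0132) and Isg15 by -4.43 ± 0.444 (adjusted p = 0.00579). Gbp2, a guanylate-binding protein, differed by -3.66, Oas1a, which makes the activator of RNase L, by -2.79, and Nlrc5 by -1.45. This contrast rests on 2 PBS libraries: none of the 31 members passed without MC903 PBS library 2, or without MC903 aGr1 library 1 or 2. MC903 PBS library 2 held 11621 cpm of the salivary and 3365 cpm of the lacrimal or nasal gland genes, and MC903 PBS library 1 held 449.23 and 530.66 cpm. The part of this RNA in the contrast was not tested.

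**Figure D4:**
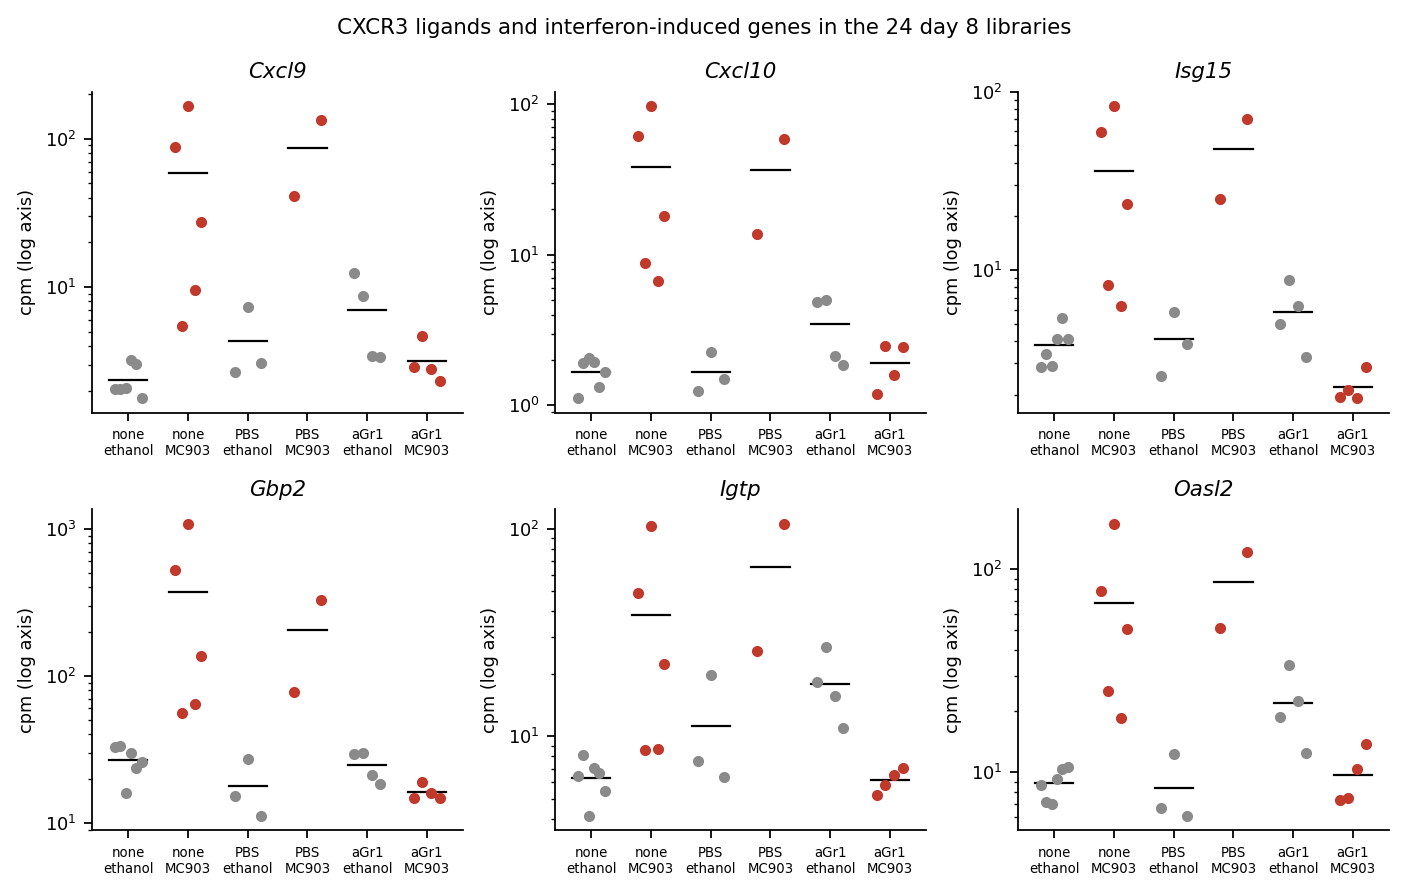
Level (cpm, log axis, one point per library, line at the group mean) of 6 interferon-induced genes in the 24 day 8 libraries, grouped by injection (none, PBS, aGr1) and treatment. The 4 MC903-treated aGr1 libraries lie below each MC903-treated library of the other mice for Cxcl9, at 2.34 to 4.71 cpm against 5.47 cpm and above.

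The MC903 effect itself was then compared between mice. Between aGr1-injected and uninjected skin it differed for 1269 of 27824 genes, 334 higher (1.2%) and 935 lower (3.36%) after aGr1, and 25 of the 31 interferon genes were lower and none higher. The titles of the uninjected libraries are written in 2 styles, which may be 2 cohorts, and the count of interferon genes was 25 with the bracketed style alone and 19 with the unbracketed style alone. Of the list, 3 passed without ethanol libraries 1 and 2 (among them Ifit3 and Oasl2), and without libraries 1, 2 and 4 none passed by edgeR while 26 had an unadjusted p under 0.05. The median difference over the list was -3.22, and -2.29 and -2.55 in those fits. Over all genes 137 and 18 passed in those fits. Between aGr1-injected and PBS-injected skin the effect differed for 62 of 26712 genes, 1 higher and 61 lower (0.228%), and 13 of the 61 were interferon genes, while DESeq2 called 27 of the 31 lower. The median difference over the list was -2.90. No gene passed in that comparison by edgeR in either of the fits without the ethanol libraries named, where 1905 and 1186 genes had an unadjusted p under 0.05 and the list medians were -2.52 and -2.66. For Cxcl9 the MC903 effect was lower by 5.43 than in uninjected skin (adjusted p = 0.00734), and by 4.37 without ethanol libraries 1 and 2 (adjusted p = 0.0901). The PBS comparison gave -5.45 (adjusted p = 0.0228), and -4.41 without those libraries (adjusted p = 0.0666).

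The ethanol libraries show the other side of these differences. In ethanol-treated skin 510 genes differed between aGr1 and PBS, 447 of them higher after aGr1 (1.67%), and without ethanol libraries 1 and 2 there were 24 in all. Of the interferon list 1 gene was higher, Irf8, a factor of B cells and myeloid cells (2.49, adjusted p = 0.0484), which did not pass without ethanol libraries 1 and 2 (0.98, adjusted p = 0.332). Irf8 stood at 58.8, 37.1, 7.92 and 12.5 cpm in ethanol libraries 1 to 4, so it was highest in the 2 libraries with B cell markers. A further 9 members of the list had an unadjusted p under 0.05, and DESeq2 called 8 members in all. How much gland and immune RNA in the ethanol libraries adds to the differences between mice was not tested beyond leaving those libraries out.

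**Figure D5:**
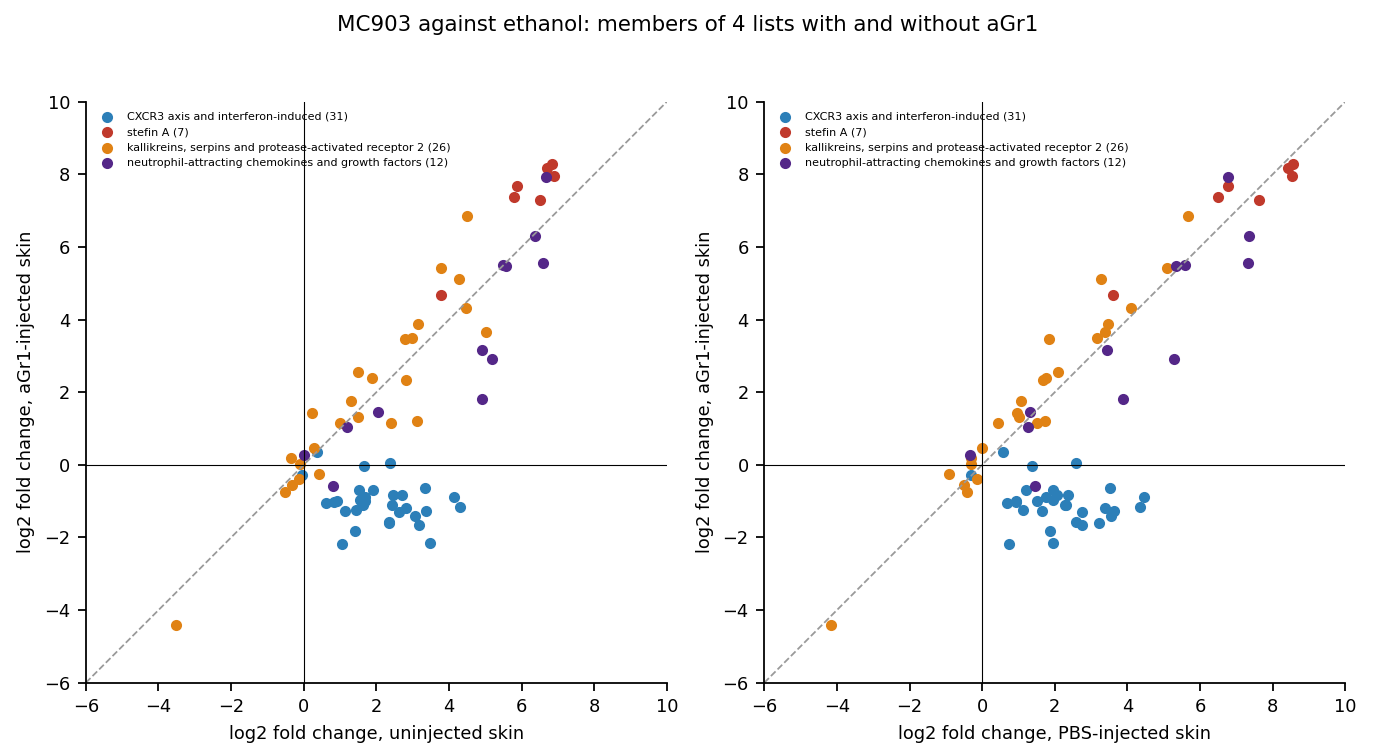
Log2 fold change of MC903 over ethanol in aGr1-injected skin (y axis) against the same in uninjected skin (left) and PBS-injected skin (right) for the members of 4 gene lists, with the dashed line at equal change. The medians of the interferon list were -1.04 after aGr1 (-0.49 without ethanol libraries 1 and 2), 1.9 in uninjected and 1.96 in PBS-injected skin, and its member Ifngr2 lies above 0 on the y axis (0.35).

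Most genes called in both aGr1-injected and uninjected skin moved the same way. Of 3767 genes called in both (45.7% of the aGr1 calls and 61.5% of the uninjected ones) 3613 had the same direction (95.9%), and of the 154 with opposite direction 140 were lower after aGr1 and higher in uninjected skin. With PBS-injected skin 792 calls were shared (9.61% of the aGr1 calls and 81.4% of the PBS ones), 743 in the same direction (93.8%), and the other 49 were all lower after aGr1. These contrasts share no libraries.

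The epithelial cytokines of the model were induced under aGr1. Of 17 tested members of the list of alarmins and interleukin-1 family genes 10 rose and none fell, with a median of 0.75, and the counts were 11 and 1 in the first reduced fit and 7 and 0 in the second. Tslp, a cytokine of keratinocytes that acts on immune cells and sensory neurons, was at 80.7, 97.1, 28.2 and 175 cpm under MC903 and 1.92, 2.44, 2.36 and 2.62 cpm under ethanol (5.33 ± 0.521, adjusted p = 1.3e-04). The 4 MC903 libraries spread widely, from 28.2 cpm in library 3 to 175 cpm in library 4, and the PBS MC903 libraries at 61.9 and 60.1 cpm lay within that range.

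Il33, an alarmin held in the nucleus of barrier cells, was at 64.5, 77.3, 103 and 48.8 cpm under MC903 and 18.4, 22.5, 20.6 and 18.5 cpm under ethanol (1.85 ± 0.211, adjusted p = 2.9e-04). Uninjected MC903-treated skin had 134 to 281 cpm, and the MC903 effect on Il33 was smaller after aGr1 than in uninjected skin (difference -1.81, adjusted p = 0.0136), a call lost without ethanol libraries 1 and 2 (-1.76, adjusted p = 0.0874). From PBS-injected skin the effect on Il33 differed by -1.14 to -0.51 over the 13 fits that left out 1 library, and passed in none. The Il33 receptor Il1rl1 was at 33.3, 47.8, 38.5 and 27.6 cpm against 7.78, 7.32, 6.08 and 6.26 cpm (2.40 ± 0.186, adjusted p = 3.7e-05). Il1f8, interleukin-36 beta, was at 73.1, 61.6, 60.8 and 85 cpm against 4.34, 6.1, 9.45 and 8.11 cpm (3.30 ± 0.239, adjusted p = 2.7e-05).

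Of the type 2 cytokines, which T helper 2 cells, basophils and innate lymphoid cells make, Il4 passed and Il13 and Il5 did not. Il4 was at 2.34, 0.532, 4.67 and 3.56 cpm under MC903 and 0.134, 0.102, 0.394 and 0.255 cpm under ethanol (3.57 ± 0.686, adjusted p = 0.00431), a call lost without ethanol libraries 1, 2 and 4 (adjusted p = 0.195). Il13 was at 0.382, 0.076, 0.289 and 0.0976 cpm against 0.179, 0, 0.0437 and 0.191 cpm (adjusted p = 0.392). Il5 was read 0 to 6 times per MC903 library and 0 to 2 times per ethanol library (adjusted p = 0.542), so a difference was not detectable at this depth. Il31, a cytokine of T cells that evokes itch, was read in none of the 8 libraries.

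The receptors were read more deeply. Il4ra, the chain shared by the receptors for Il4 and Il13, was at 193, 298, 221 and 148 cpm under MC903 and 55.1, 41.2, 31 and 24.1 cpm under ethanol (2.48 ± 0.298, adjusted p = 3.8e-04). Osmr, a chain of the receptors for oncostatin M and Il31, was at 105, 110, 98.9 and 95.9 cpm against 38.1, 37.9, 38.4 and 32.4 cpm (1.46, adjusted p = 1.8e-05). Il13ra1 rose by 1.26 and Osm by 3.37. Of the 16 tested members of the list 9 rose and 1, the T helper 2 factor Gata3, fell, and 7 and then 4 rose in the reduced fits, with 1 lower in each.

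The epidermis shifted strongly. Of 49 tested genes of the cornified envelope and epidermal differentiation 35 rose and 9 fell, with a median of 2.11, and 32 and then 25 rose in the reduced fits, with 9 lower in each. Flg2, a filaggrin-like protein of the upper epidermis, was at 83.7, 83.2, 90.9 and 56.9 cpm under MC903 and 1539, 2039, 2076 and 2019 cpm under ethanol (-4.63 ± 0.228, adjusted p = 5.3e-06). Lor, loricrin, was at 62.7, 52.4, 69.8 and 41 cpm against 526, 673, 896 and 831 cpm (-3.72, adjusted p = 1.6e-05). Involucrin (Ivl), Crnn, Tchhl1, Lce1c, Lce1l, Lce1m and Dsg1a were the others that fell. As 17.5% of all genes tested fell, the number of members that fell does not set this list apart.

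The members that rose included small proline-rich and S100-fused proteins of the envelope. Rptn, repetin, was at 3229, 2597, 2764 and 4043 cpm under MC903 and 38.3, 39.1, 55.5 and 26.2 cpm under ethanol (6.29, adjusted p = 6.8e-06). Sprr2i was at 40.4 to 55.5 cpm against 0.458 to 0.7 cpm (6.42 ± 0.187, adjusted p = 3.3e-07). The Sprr2 and Lce genes are near copies of one another, so reads may be split between them and single members are uncertain. Sprr3 was read in none of the 8 libraries.

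The keratins of activated epidermis rose, and several of those of the resting upper layers fell. Krt6b was at 6041, 5461, 6138 and 4926 cpm under MC903 and 38.4, 29.2, 59.8 and 52.3 cpm under ethanol (6.95 ± 0.318, adjusted p = 3.9e-06). Krt6a was at 7500, 7402, 7789 and 5787 cpm against 117.5, 89.1, 216.2 and 171.5 cpm (5.56, adjusted p = 1.4e-05), although reads of this pair of near-identical genes cannot be fully separated. Krt16, their partner in the filament, was at 4106, 4007, 4130 and 3272 cpm against 44.6, 47.8, 103 and 79.2 cpm (5.80, adjusted p = 1.1e-05). Krt14 and Krt17 also rose, and Krt10, Krt2, Krt77, Krt78, Krt15 and Krt8 fell, so 5 of 20 tested keratins rose and 6 fell. The counts were 5 and 5 in the first reduced fit, where Krt8 did not pass (adjusted p = 0.0958), and 4 and 3 in the second, where Krt2, Krt78 and Krt17 did not pass either (adjusted p = 0.12, 0.0522 and 0.0585).

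Proteases and their inhibitors moved with the barrier genes. Of 26 tested kallikreins, serpins and related genes 16 rose and 4 fell, with a median of 1.37, and 13 and then 11 rose in the reduced fits, with 4 lower in each. Klk13, a kallikrein, was at 229, 261, 218 and 250 cpm under MC903 and 2.01, 1.32, 3.06 and 1.66 cpm under ethanol (6.86 ± 0.269, adjusted p = 1.9e-06). Its MC903 effect was larger after aGr1 than in uninjected skin by 2.39 (adjusted p = 3.8e-05), and the difference passed without ethanol libraries 1 and 2 (adjusted p = 0.00058). Klk13 was among the genes selected by their p in that comparison. The difference from PBS-injected skin was 0.83 to 1.6 over the 13 fits that left out 1 library, and it passed in none. Klk9 was at 244, 263, 221 and 260 cpm against 9.88, 11.3, 15.1 and 11.9 cpm (4.33 ± 0.158, adjusted p = 1.3e-06). Serpinb7, a protease inhibitor of the epidermis, fell from 58.5, 73.2, 102 and 106 cpm to 4.93, 2.32, 4.52 and 4.49 cpm (-4.41, adjusted p = 1.6e-05). F2rl1, protease-activated receptor 2, which several of these proteases can activate, fell by 0.76 on the log2 scale (adjusted p = 0.0385). The number of members that fell was near the share over all genes tested (17.5%).

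The stefin A genes, inhibitors of cysteine proteases in a cluster on chromosome 16, had the highest median of the 21 lists, at 7.67, and 7 of 7 tested members rose, also without ethanol libraries 1 and 2 and without libraries 1, 2 and 4. BC100530, at chr16:36359382-36367748 of mm10, was at 3109, 2638, 3652 and 5423 cpm under MC903 and 13.8, 7.17, 17.1 and 13 cpm under ethanol (8.16 ± 0.423, adjusted p = 6.9e-06). Stfa1, at chr16:36276951-36285373, was at 904, 804, 1116 and 1734 cpm against 4.87, 2.19, 6.03 and 4.85 cpm (7.96, adjusted p = 8.6e-06). These genes are near copies, so the division of reads among them is uncertain and the sum is safer: it was 6333 to 11597 cpm under MC903 and 64 to 142 cpm under ethanol. The sum was 11026 and 4402 cpm in the PBS MC903 libraries and 879 to 2248 cpm in the uninjected ones.

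Antimicrobial proteins rose for 14 of 22 tested members and fell for 2. The beta-defensins Defb4 and Defb14 rose by 6.86 and 6.36 and Chil1, a chitinase-like protein, by 4.67 on the log2 scale, while Lyz1 and S100a7a fell. In the reduced fits 12 rose in each and 2 and then 1 fell, with Lyz1 lost in the second (adjusted p = 0.246). Of 27 genes of barrier lipid synthesis 14 rose and 5 fell, and these counts were 7 and 5 without ethanol libraries 1 and 2 and 2 and 3 without libraries 1, 2 and 4. Among them Ugcg, which makes glucosylceramide, rose by 1.47 and Sptlc2, a subunit of the first enzyme of sphingolipid synthesis, by 1.12, and the acid lipase Lipn fell by 2.88. Over all genes tested 15.1% rose and 17.5% fell, so the number of lipid genes that fell does not set their list apart.

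Single genes of the vitamin D response changed strongly after aGr1. Cyp24a1, the enzyme that degrades vitamin D hormones, was at 4892, 4595, 4223 and 4684 cpm under MC903 and 14.8, 6.36, 4.55 and 2.11 cpm under ethanol (9.34 ± 0.693, adjusted p = 3.0e-05). The PBS MC903 libraries had 3113 and 2420 cpm. The MC903 effect on Cyp24a1 differed from uninjected skin by 2.11 (adjusted p = 0.0398), a call made in 7 of the 19 fits that left out 1 library. From PBS-injected skin it differed by -0.09 to 0.89 over the 13 fits of that kind, and passed in none. The protocadherin-like Cdhr1 rose by 6.89, and Cyp27b1, the enzyme that makes the active hormone, fell by 1.36, a call lost without ethanol libraries 1 and 2 (-1.10, adjusted p = 0.0696). Of 12 tested genes of the list 3 rose and 2 fell, and the counts were 4 and 1 in the first reduced fit. Over all genes tested 15.1% rose and 17.5% fell, so these counts do not set the list as a whole apart. The receptor Vdr changed by 0.43 and did not pass (adjusted p = 0.256). The direct repeat that the vitamin D receptor reads (DR3) was found in 13 of 32851 promoters (0.0396%). It was found in 0 of the 65 genes named by rule that had a promoter entry. Cyp24a1 had no entry, so its promoter was not searched. At so low a share over all promoters, the absence among the named genes is not informative.

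Of 24 tested itch mediators and genes of prostaglandin and leukotriene synthesis 14 rose and 1, the neuropeptide Nmb, fell, with a median of 0.77. The counts were 10 and 2 in the first reduced fit and 8 and 0 in the second, where Nmb did not pass (adjusted p = 0.19). Ptgs2, the inducible enzyme of prostaglandin synthesis, was at 568, 399, 435 and 523 cpm under MC903 and 2.28, 1.27, 2.67 and 1.72 cpm under ethanol (7.89 ± 0.294, adjusted p = 1.4e-06). Ptges, the prostaglandin E synthase, was at 305, 375, 313 and 287 cpm against 22.3, 29.4, 34 and 41.2 cpm (3.31, adjusted p = 1.2e-05). The neurotrophic factor Artn rose by 2.51 on the log2 scale, a call lost without libraries 1, 2 and 4 (1.95, adjusted p = 0.0634). None of the 24 members passed between aGr1 and PBS in MC903-treated skin by edgeR or DESeq2, where 6 had an unadjusted p under 0.05.

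Matrix and remodelling genes rose for 15 of 26 tested members and fell for 2, and in the reduced fits 12 and then 11 rose and none fell. Adamts4, a metalloproteinase that cuts proteoglycans, was at 40.1, 61.3, 32.4 and 24.4 cpm under MC903 and 1.07, 0.966, 1.75 and 0.957 cpm under ethanol (5.02, adjusted p = 2.0e-05). Mmp10 rose by 4.97 and Mmp9 by 3.24. Cell cycle genes rose for 17 of 30 members and fell for none, but the count was 5 without ethanol libraries 1 and 2 and 1 without libraries 1, 2 and 4. Ccne1, which drives entry into S phase, was at 9.94, 9.58, 11.5 and 8.59 cpm against 3.89, 3, 3.63 and 3 cpm (1.52, adjusted p = 1.8e-04). Mcm5, a subunit of the replicative helicase, rose by 1.53 and Birc5, a mitotic regulator, by 1.39, both lost without libraries 1, 2 and 4 (adjusted p = 0.0588 and 0.152).

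Basophil and mast cell transcripts rose. Of 14 tested members of the list 10 rose and 1 fell, with a median of 1.46, and 10 and then 9 rose in the reduced fits, with 1 lower in each. Mcpt8, a protease of basophils, was at 10.7, 8.02, 13.1 and 5.12 cpm under MC903 and at 0.0447, 0.0509, 0 and 0 cpm under ethanol, at least 48.3-fold higher (adjusted p = 1.9e-05). Hdc, the enzyme that makes histamine, was at 43.5, 45.6, 51.6 and 38.6 cpm against 2.82, 1.93, 1.92 and 2.68 cpm (4.24 ± 0.175, adjusted p = 2.5e-06). Tpsb2, a mast cell tryptase, rose by 2.01.

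Of 21 monocyte chemokine and macrophage genes 13 rose and 3 fell, among them Ccl5 and Ccr2, and 12 and then 8 rose in the reduced fits, with 1 lower in each. The fall of Ccl5 was lost without ethanol libraries 1 and 2 (-0.95, adjusted p = 0.217), while Ccr2 passed there (-1.34, adjusted p = 0.00322). Of 13 genes of alternatively activated macrophages 6 rose and 1, Retnla, fell, and 7 and then 6 rose in the reduced fits, with 1 lower in each. Ccl6, a chemokine of myeloid cells, was at 407, 619, 365 and 385 cpm under MC903 and 89.2, 76, 77.8 and 71.2 cpm under ethanol (2.47, adjusted p = 4.1e-05). Arg1, the arginase of alternatively activated macrophages, was at 259, 177, 265 and 244 cpm against 33.3, 53.6, 32.1 and 41.4 cpm (2.53, adjusted p = 4.6e-05). Chil3, a chitinase-like protein of such cells, was at 34.8, 64, 35.3 and 23.7 cpm against 0, 0.203, 0.481 and 0.128 cpm (7.50, adjusted p = 4.4e-05). Of 13 chemokines and receptors of eosinophils and T cells 1 rose, Ccl8, at 226, 353, 295 and 207 cpm against 48.2, 45.7, 68.1 and 34.6 cpm (2.43, adjusted p = 1.5e-04), and 5 fell, Ccl11, Ccl22, Ccl27a, Ccr4 and Ccr6. Of these Ccl22 (-0.63, adjusted p = 0.328) and Ccr6 (-0.57, adjusted p = 0.626) did not pass without ethanol libraries 1 and 2, and the counts were 1 and 3 in both reduced fits.

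T cell and dendritic cell genes must be read beside the B cell and T cell markers of the ethanol libraries. T cell markers summed to 16.7, 12.8, 22.3 and 15.8 cpm under MC903 and to 98.1, 24.8 and 17.9 cpm in ethanol libraries 2, 3 and 4, with library 1 above library 2, so ethanol libraries 1 and 2 stood apart and libraries 3 and 4 lay near the MC903 range. Of 18 tested T cell genes 9 fell and 1 rose, and 6 and then 5 fell and none rose in the reduced fits. Cd3g, a chain of the T cell receptor complex, was at 0.892, 0.988, 1.83 and 1.41 cpm under MC903 and 13.6, 12.8, 6.25 and 4.98 cpm under ethanol (-2.91, adjusted p = 7.6e-04). Trdc, the constant chain of the gamma-delta receptor that epidermal T cells carry, was at 2.42, 2.01, 4.38 and 3.17 cpm against 8.27, 8.75, 8.57 and 8.3 cpm (-1.53, adjusted p = 0.00136), with like levels in all 4 ethanol libraries. Cd8a was at 0.0425, 0.152, 0.289 and 0.341 cpm against 10.9, 7.27, 1.4 and 0.766 cpm, and followed the B cell markers across the ethanol libraries.

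Cd207, langerin, the marker of Langerhans cells, was at 0.68, 0.646, 0.866 and 1.02 cpm under MC903 and 5.59, 8.24, 7.87 and 7.02 cpm under ethanol (-3.18, adjusted p = 2.1e-05), again with like levels in the 4 ethanol libraries. Cd74, the invariant chain of MHC class II, was at 125.5, 92.2, 192.5 and 145.2 cpm under MC903 and 1015, 801, 414 and 394 cpm under ethanol (-2.27, adjusted p = 0.00176). In uninjected skin Cd74 changed by -0.20 (adjusted p = 0.539), and the difference of -2.05 between the mice (adjusted p = 0.0102) did not pass without ethanol libraries 1 and 2 (-1.33, adjusted p = 0.119). Of 15 tested members of the list 8 fell and none rose, and the reduced fits gave 6 lower in each, with 2 and then 0 higher.

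The genes whose MC903 effect was lowest after aGr1 against uninjected skin were Lpo, Wfdc12, Gjb1, Pax9 and Ifi27 by rank of p. Lpo, lactoperoxidase, a secreted enzyme of glands, was at 633, 1130, 107 and 1880 cpm in ethanol libraries 1 to 4 and at 11.5, 3.15, 71.5 and 33.8 cpm in MC903 libraries 1 to 4, and so followed the gland RNA described above. Among genes whose effect was higher were Gm9978 (2.85), Klk13, Pappa (2.19), a metalloproteinase that cuts binding proteins of insulin-like growth factors, Fbxo32 (2.58), a ubiquitin ligase of muscle wasting, and Col28a1 (1.49), a collagen. None of these higher effects passed in the comparison with PBS-injected skin.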

How the data were processed

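RNA of cheek skin was poly(A)-selected and sequenced from 1 end. According to the study's methods and the submitters' processing notes, the authors mapped reads to mm10 with Bowtie2 and TopHat and counted reads per gene with HTSeq; the annotation release and the strand setting are not given in the sources used here. The deposited values are raw counts per gene, 1 file per library, and rows that name no gene were left out (reads in no feature took 9.02% to 15.6% of all reads listed). Of 46078 genes 45143 had a symbol in the reference tables. Libraries were grouped by their labels. Genes with at least 10 counts over the libraries fitted were tested with edgeR 4.0.16 (R 4.3.3, glmQLFit and glmQLFTest, TMM scaling, Benjamini-Hochberg adjustment, threshold 0.05), after the steps were tested on simulated data. The 8 aGr1 libraries were fitted alone, with the 11 uninjected libraries (interaction term, label style as a covariate) and with the 5 PBS libraries (4 group means). Counting intervals were not needed for group tests, and floors of 3 counts a library cover counting error only. No library pair agreed within sampling noise.

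The members, gene lists and tests were chosen with earlier results of these data known. Genes were named by rule (Ly6g, the cytokines and chemokines the study plots for these mice, up to 3 members per list with the smallest p, 6 genes per direction with the smallest p and groups that do not overlap, and 5 per direction in each comparison of effects), which gave 96 genes; others named were chosen after their values were seen. Alternatives were DESeq2 1.42.0, RLE scaling, other filters on low counts, a replicate block, single label styles, 1 fit over 24 libraries, leaving out each library, and leaving out the ethanol libraries with the most gland RNA. Promoter windows came from RefSeq (GRCm38.p6) and gene positions from the GENCODE vM21 annotation of the same build. The other libraries of the series were not used here, and a few genes are not reported here.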

Additional observations from a re-analysis of the deposited data

Results flagged for a closer look

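Within the groups of 4 aGr1 libraries, 13 values lay far from the other 3 by Dixon's test, which chance alone does for about 1 in 20 groups. The 96 named genes were examined under both treatments, along with marker sums. A count of 13 is thus not set apart from chance, and the values are listed as a description. In MC903 library 4 these were Birc5 (17 cpm), Mcm5 (44.1 cpm), Krt16 (3272 cpm) and Mmp10 (37.5 cpm). The other MC903 libraries gave Ccl6 at 619 cpm and Serpinb7 at 2.32 cpm in library 2, Pax9 at 7.12 cpm in library 3 and Tpsb2 at 50.5 cpm in library 1. Among the ethanol libraries they were Flg2 (1539 cpm) and Skint7 (10.4 cpm) in library 1, Adamts4 (1.75 cpm) in library 3, and Osmr (32.4 cpm) and the neutrophil marker sum (364 cpm) in library 4.

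The MC903 effect differed after aGr1 from that in uninjected skin for 36 of the named genes, by edgeR's test of the interaction. The log2 difference was negative for interferon-induced genes: Apol9a -5.45, Cxcl9 -5.43, Cxcl10 -5.00, Cxcl11 -5.63, Isg15 -4.48, Oasl2 -3.99, Igtp -3.89, Oas1a -3.37, Usp18 -3.22, Ifi27 -2.20 and Nlrc5 -1.84. It was also negative for Lpo -11.27, Wfdc12 -10.03, Pax9 -7.23 and Gjb1 -7.15, which were highest in ethanol libraries with gland RNA, and for Defb8 -2.54, Cd74 -2.05, H2-Ab1 -1.99, Il33 -1.81, Lipn -1.29 and Orm1 -1.21. A positive difference was found for Defb4 3.47, Gm9978 2.85, Fbxo32 2.58, Adamts4 2.42, Klk13 2.39, Mmp10 2.28, Pappa 2.19, Cyp24a1 2.11, Ptgs2 1.87, Rptn 1.87, Tmprss11b 1.54, Col28a1 1.49, Krt6b 1.46, Krt16 1.35 and Ces2g 0.81. None of these positive differences passed against PBS-injected skin with all libraries. Over the 13 fits without 1 library, the PBS difference was -0.82 to 0.17 for Defb4 and -0.31 to 0.06 for Mmp10. It was 1.76 to 2.19 for Pappa and 1.6 to 2.85 for Fbxo32.

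Against PBS-injected skin the effect was lower for 13 of the named genes. The difference was -11.31 for Lpo, -10.40 for Wfdc12, -8.22 for Pax9 and -6.68 for Gjb1. It was -5.73 for Apol9a, -5.45 for Cxcl9, -5.29 for Cxcl10, -4.94 for Isg15, -4.53 for Oasl2, -4.12 for Oas1a, -4.09 for Igtp, -3.64 for Usp18 and -1.92 for Nlrc5. None of these 13 passed without ethanol libraries 1 and 2, where the difference was -5.49 for Apol9a, -4.50 for Cxcl10 and -4.41 for Cxcl9.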

How the results depend on the processing

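For MC903 against ethanol after aGr1, 8242 genes passed. RLE scaling gave 8221, DESeq2 8956, no filter 7802, filterByExpr 7927 and 1 fit over 24 libraries 7716, and fits without 1 library gave 6082 to 8590. Without ethanol aGr1 libraries 1, 2 and 4, where 1 ethanol library remains and is assumed to vary like the MC903 group, 2844 passed. For uninjected skin 6125 became 2258 with the unbracketed label style alone, and 4883 to 6445 without 1 library. For PBS-injected skin 973 became 2118 with DESeq2, and 101 to 2172 without 1 library.

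The MC903 effect after aGr1 against uninjected skin gave 1269 genes, 2515 with DESeq2, 665 and 447 with the bracketed and unbracketed styles alone, 137 without ethanol aGr1 libraries 1 and 2 and 18 without 1, 2 and 4. Fits without 1 library gave 621 to 2353. The count fell to 621 and 647 without MC903 aGr1 library 1 or 2, to 722 and 623 without ethanol aGr1 library 1 or 2, and to 845 without 1 uninjected ethanol library of the bracketed style, and it rose to 2353 without ethanol aGr1 library 3. Against PBS-injected skin 62 genes became 610 with DESeq2, 136 with no filter, and 0 both without ethanol aGr1 libraries 1 and 2 and without 1, 2 and 4 (edgeR, with 1905 and 1186 at an unadjusted p under 0.05), with 0 to 399 without 1 library. It was 0 without MC903 aGr1 library 1 or 2, MC903 PBS library 2 or ethanol PBS library 1, and 399 without ethanol aGr1 library 3.

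For MC903-treated skin, aGr1 against PBS, 57 genes became 650 with DESeq2, 99 without ethanol aGr1 libraries 1 and 2, 21 without 1, 2 and 4, and 0 to 100 without 1 library, with 0 without MC903 aGr1 library 1 or 2 or MC903 PBS library 2. For ethanol-treated skin 510 became 2474 with DESeq2, 24 and 2 without those ethanol libraries, and 0 to 2920 without 1 library, with 0 without ethanol PBS library 1 or 3 and 2920 without ethanol aGr1 library 3. The cause of these shifts was not tested.

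Whether replicate numbers pair the samples was not settled by these data. Correlations of same-numbered MC903 and ethanol aGr1 libraries were 0.0193, -0.126, 0.0709 and 0.406. Those of libraries with different numbers ran from -0.436 to 0.31. The highest of all was that of number 4, whose 2 libraries both held lacrimal or nasal gland RNA. With a replicate block 6872 genes passed for MC903 against ethanol after aGr1, 641 for PBS-injected skin, 747 for the comparison with uninjected skin and 56 for that with PBS-injected skin. Of the interferon list 14 fell with the block in the first of these.

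Among the changes of the named genes with MC903 after aGr1 and the differences between mice that passed, none changed sign under the alternatives run, 2554 values kept their side of the threshold, 279 lost it and 7 gained it. Depth limits Ly6g, Il5, Ifng and Cxcl11, read a few times per library, and 2 PBS libraries under MC903 limit each comparison with PBS.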

Other observations

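Marker sums not described above also varied among the aGr1 libraries. Haemoglobin genes, used as red cell markers, summed to 1996, 4959, 731 and 2653 cpm in MC903 libraries 1 to 4 and to 635, 1400, 454 and 1592 cpm in the ethanol libraries, so the groups overlapped. Endothelial markers summed to 356, 294, 355 and 230 cpm under MC903 and 253, 222, 150 and 141 cpm under ethanol. The melanocyte sum was 142, 88.7, 67.4 and 80.2 cpm under MC903 and 24, 20.1, 140 and 62.2 cpm under ethanol. On the first principal component of the 8 libraries, which held 62.3% of the variance, the treatments separated, and on the second, which held 21.8%, MC903 library 4 and ethanol library 4 lay apart from the other 6, as did their lacrimal or nasal gland RNA.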
